A study of Mus musculus with 14 samples.

Results

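The genes described here are 9 genes by which GABA-releasing (inhibitory) neurons of the forebrain are usually recognised: Gad1, Gad2, Slc32a1, Dlx1, Dlx2, Dlx5, Lhx6, Erbb4 and Adarb2. They were chosen by name, and all 9 were found among the 55401 genes of the deposited count table. RNA was read by SMART-Seq2, which amplifies polyadenylated RNA over its full length, from 14 tubes that each held 4 to 5 neurons. The cells came from wild-type C57BL/6 mice of either sex and lay in the region that the labels call PiC. Every animal had received AAVretro-EGFP, a virus taken up by axon endings and carried to the cell body, at 0.1 µl per injection into PrL or MeA, and the green cells were drawn into a glass micropipette with a tip of 60 to 100 µm. PiC, PrL and MeA are the labels' own abbreviations, no ages are given, and there was no untreated group. Cells were labelled by their target and not by a promoter of inhibitory neurons, so a tube may mix cell classes. Neurons labelled from PrL filled 4 tubes from females and 4 from males, called female and male PiC-PrL here, and neurons labelled from MeA filled 3 tubes from each sex, called female and male PiC-MeA. Nothing says that tubes of a group came from separate animals, so the spread between them, which every p-value measures, may be partly technical.

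GABA is made from glutamate by 2 forms of glutamate decarboxylase, GAD67 from Gad1 and GAD65 from Gad2, and is loaded into synaptic vesicles by the transporter that Slc32a1 encodes. The Dlx genes encode homeodomain transcription factors that act while forebrain GABA neurons form, and Lhx6 encodes a LIM homeodomain factor kept by the lineages that yield parvalbumin and somatostatin neurons. Erbb4 encodes a neuregulin receptor that is abundant on many cortical interneurons, and Adarb2 encodes an RNA-binding protein of the ADAR family that marks interneurons of another embryonic origin, including many that make VIP. Excitatory projection neurons are instead recognised by vesicular glutamate transporters and genes such as Camk2a.

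The homeodomain factors in the list bind a core that is often written TAATTA, and promoters were searched for it. Some of these genes varied together over the tubes (Gad1 with Erbb4 above all, given further on), and a part of the core in that was not tested. RefSeq promoter windows of 300 bases, from 250 before to 50 after a start site (build GRCm38.p6, the same assembly as mm10, which the submitters' notes name), were at hand for 8 of the 9 genes in 10 windows. The core, which reads the same on both strands, was in 1 of these 10 windows, that of Adarb2, and in 1738 of all 32851 windows (5.29%). The stretches before the start that lie in no GENCODE M21 exon are shown for Gad1, Erbb4 and Adarb2, whose patterns over the tubes are followed below. They lie at chr2:70561879-70562041 (plus strand), chr1:69108060-69108309 (minus strand) and chr13:8202616-8202865 (plus strand), and are written 5′ to 3′ along the gene's strand, with the core in capitals. The Gad1 stretch lies inside the span of Gad1 in GENCODE M21, 70553072 to 70602014. A match is a string of letters and not a shown binding site.
Gad1: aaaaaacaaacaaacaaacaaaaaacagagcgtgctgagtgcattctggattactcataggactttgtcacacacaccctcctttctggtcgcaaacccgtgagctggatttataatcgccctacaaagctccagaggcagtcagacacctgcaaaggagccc
Erbb4: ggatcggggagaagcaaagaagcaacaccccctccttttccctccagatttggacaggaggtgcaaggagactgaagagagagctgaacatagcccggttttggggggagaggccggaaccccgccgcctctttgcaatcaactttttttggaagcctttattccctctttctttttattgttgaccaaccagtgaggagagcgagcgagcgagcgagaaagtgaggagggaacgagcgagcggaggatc
Adarb2: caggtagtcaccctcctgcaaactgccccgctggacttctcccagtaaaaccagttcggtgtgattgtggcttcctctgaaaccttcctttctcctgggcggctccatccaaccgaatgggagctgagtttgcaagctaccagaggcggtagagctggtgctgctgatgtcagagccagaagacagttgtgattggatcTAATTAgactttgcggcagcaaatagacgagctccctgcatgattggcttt

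Total counts per library ran from 6132985, in male PiC-MeA replicate 3, to 15392217. That replicate also had the highest mitochondrial share of counts, 15.3%, against 4.80% and 9.23% in male PiC-MeA replicates 1 and 2. The other 11 libraries had 3.29 to 12.2%. The male PiC-MeA libraries stood apart from the other 11 before any comparison: they held fewer counts (6132985 to 10572618 against 11755389 to 15392217) yet had a count for 18964 to 20014 genes against 12479 to 14908. Olfactory receptor genes, which neurons of the brain are not expected to use, had a count for 203 to 266 of 1103 in male PiC-MeA libraries against 39 to 77. These differences move with every comparison that involves that group, and their part in the results was not tested. Of neuronal markers, which check the labelled cell type, the synaptic gene Snap25 stood at 5079 to 12269 CPM (a gene's counts scaled to a fixed library total) in all 14 libraries. A count of 0 does not show absence here, since the neuronal genes Tubb3 and Nefl were also at 0 in all 14 libraries. A 0 allows up to 3 counts, which is 0.195 to 0.489 CPM depending on the library, and this limit covers counting error only, since reads copied by PCR are not independent molecules.

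Gad1 and Gad2 were read in all 14 libraries, whereas the vesicular transporter gene and the Dlx genes had few or no counts in most libraries. At 10 counts or more, Gad1, Erbb4 and Adarb2 were present in 14 libraries, Gad2 in 13, Lhx6 in 6, Slc32a1 in 4, Dlx5 in 3, Dlx2 in 2 and Dlx1 in 0. A single library had between 3 and 7 of the 9 genes at that depth. Levels differed by orders of magnitude between tubes of the same group, as the map of counts shows.

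**Figure D1:**
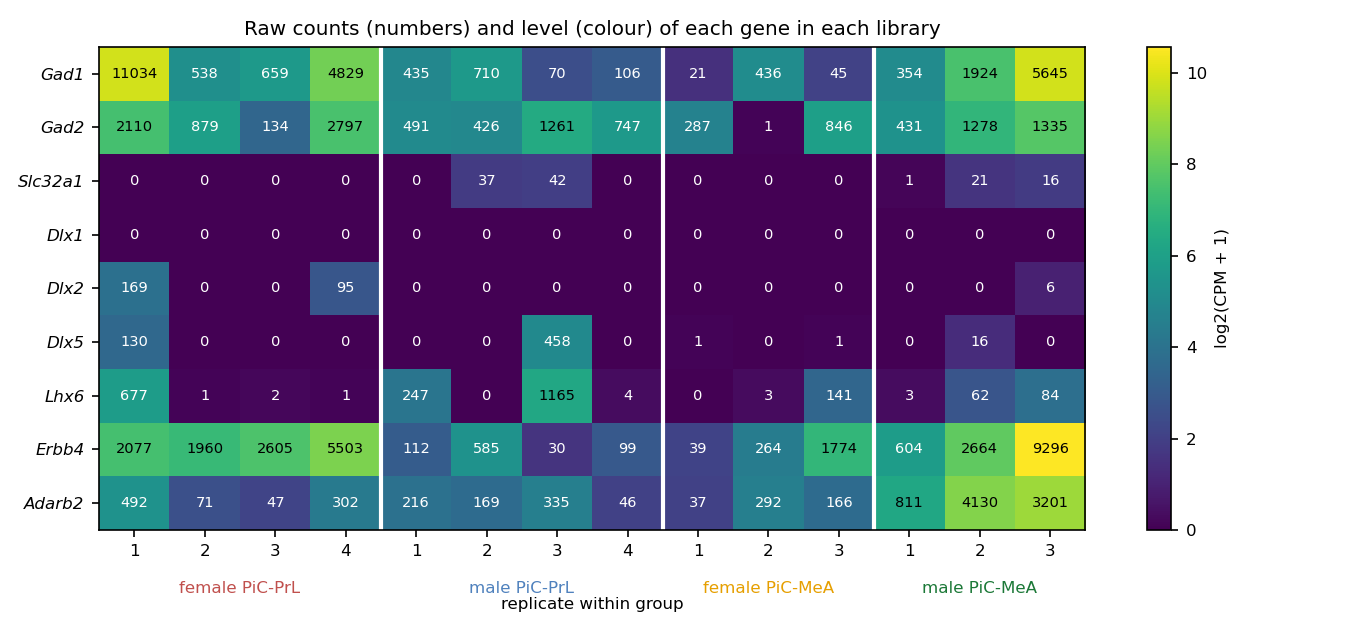
Each cell gives the raw count of 1 gene (rows) in 1 library (columns, by replicate within the 4 groups), and the colour gives log2(CPM + 1). Gad1, Erbb4 and Adarb2 have counts in every column, Dlx1 in none, and Slc32a1 has counts in male libraries only.

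Gad1 (chromosome 2, 70553072 to 70602014, plus strand, 7639 bases of exon in GENCODE M21) stood at 914, 37.4, 49.6 and 314 CPM in female PiC-PrL replicates 1 to 4 and at 28.6, 49.7, 4.77 and 7.26 CPM in male PiC-PrL replicates 1 to 4. In female PiC-MeA replicates 1 to 3 it stood at 1.79, 33.9 and 3.26 CPM, and in male PiC-MeA replicates 1 to 3 at 33.5, 183 and 920.4 CPM. Female PiC-PrL and male PiC-MeA tubes were thus the high groups (329 ± 410 and 379 ± 475 CPM, mean ± SD, n = 4 and 3), and male PiC-PrL and female PiC-MeA tubes the low ones (22.6 ± 21.0 and 13.0 ± 18.2 CPM, n = 4 and 3). The groups overlapped except in 1 of the comparisons by sex or target: every female PiC-MeA tube was below every female PiC-PrL tube. Within a group the highest tube held 10.4 to 27.5 times the level of the lowest. In male PiC-MeA tubes replicate 3 supplied 80.96% of the summed level, and in female PiC-PrL tubes replicate 1 supplied 69.5%. That male replicate had the fewest counts and the highest mitochondrial share of all libraries, and their part in its level was not tested. The antisense gene Gad1os shares no exon bases with Gad1, and the pseudogene Gad1-ps had at most 4 counts in any library.

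Gad2 (chromosome 2, 22622205 to 22693874, plus strand, 5876 bases of exon) stood at 174.7, 61.2, 10.1 and 181.7 CPM in female PiC-PrL and at 32.2, 29.8, 85.9 and 51.2 CPM in male PiC-PrL replicates 1 to 4. In female PiC-MeA replicates 1 to 3 it was at 24.4, 0.0778 and 61.2 CPM, and in male PiC-MeA replicates at 40.8, 121.5 and 217.7 CPM. All pairs of groups compared overlapped. The means ran from 127 ± 88.6 CPM in male PiC-MeA tubes (n = 3) through 107 ± 84.97 in female and 49.8 ± 25.9 in male PiC-PrL tubes (n = 4 each) to 28.6 ± 30.8 in female PiC-MeA tubes (n = 3), with each neighbouring pair closer than the larger of its SDs.

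The balance of the 2 decarboxylase genes differed from tube to tube. Per kilobase of exon, Gad1 was above Gad2 in 7 libraries and below it in the other 7, and the ratio ran from 0.0409 in female PiC-MeA replicate 3 to 335 in female PiC-MeA replicate 2. That last tube had 436 counts of Gad1 beside 1 count of Gad2, while female PiC-MeA replicate 1 had 21 beside 287. Male PiC-PrL replicate 3 was of the second kind, with 70 counts of Gad1 beside 1261 of Gad2. Across the 14 libraries the rank correlation of the pair was 0.49 (Spearman's rho on log2(CPM + 1), a description over libraries that share groups).

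**Figure D2:**
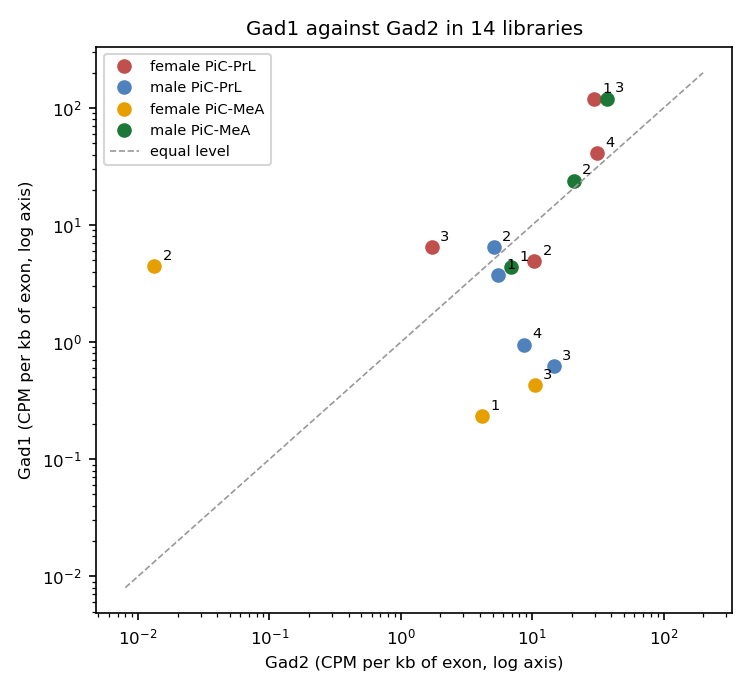
Gad1 (vertical) is plotted against Gad2 (horizontal), both in CPM per kilobase of exon on log axes, with 1 point per library numbered by replicate and a dashed line of equal level. 7 points lie above the line and 7 below it, and female PiC-MeA replicate 2 lies far to the left, with 1 count of Gad2.

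Slc32a1 (chromosome 2, 158610767 to 158615748, plus strand, 2797 bases of exon) had 117 counts in all 14 libraries together, or 41.8 counts per kilobase of exon against 2216 for Gad2 and 3509 for Gad1. It had 0 counts in all 7 female libraries. Male PiC-PrL replicates 1 to 4 held 0, 37, 42 and 0 counts, and male PiC-MeA replicates 1 to 3 held 1, 21 and 16. The highest level was 2.86 CPM, in male PiC-PrL replicate 3. The difference between the male counts and the female zeros did not pass over all genes tested (edgeR quasi-likelihood adjusted p = 0.283 in PiC-PrL and 0.331 in PiC-MeA). The antisense gene Gm14205 covers 24.9% of the exon bases of Slc32a1 and had 0 counts.

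Among the transcription factors, Dlx1 (chromosome 2, 71528113 to 71533981) had 0 counts in every library, although its antisense neighbour Dlx1as, which covers 6.21% of its exon bases, had 79 counts, 66 of them in 1 library. Dlx2, which lies beside it (chromosome 2, 71543408 to 71546754), had 169 and 95 counts in female PiC-PrL replicates 1 and 4, 6 in male PiC-MeA replicate 3, and 0 in the other 11 libraries. These were the 3 tubes with the highest Gad1. Dlx5 (chromosome 6, 6877805 to 6882085) had 130 counts in female PiC-PrL replicate 1, 458 in male PiC-PrL replicate 3 and 16 in male PiC-MeA replicate 2, with at most 1 count elsewhere.

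Lhx6 (chromosome 2, 36081953 to 36105408, minus strand) was present in some tubes of each group and at most 4 counts in the rest. It stood at 56.1 CPM in female PiC-PrL replicate 1 (677 counts), where replicates 2 to 4 held 1, 2 and 1 counts. In male PiC-PrL replicates 1 to 4 it held 247, 0, 1165 and 4 counts, in female PiC-MeA replicates 1 to 3 it held 0, 3 and 141, and in male PiC-MeA replicates 3, 62 and 84. Male PiC-PrL replicate 3 therefore joined the highest Lhx6 (79.4 CPM) and the highest Dlx5 (31.2 CPM) to a Gad1 of 4.77 CPM. Somatostatin (Sst), a peptide of the lineage that keeps Lhx6 and a gene looked up after its values were seen, had 3675 counts in that tube, but its highest value, 19800 counts in female PiC-PrL replicate 4, came with 1 count of Lhx6.

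Erbb4 (chromosome 1, 68032186 to 69108059, minus strand, a span of 1075874 bases with 12355 bases of exon) stood at 172, 136, 196 and 358 CPM in female PiC-PrL replicates 1 to 4. Male PiC-PrL replicates 1 to 4 held 7.36, 41.0, 2.04 and 6.78 CPM, so every male tube was below every female tube. Female PiC-MeA replicates 1 to 3 held 3.32, 20.6 and 128 CPM, and male PiC-MeA replicates 57.1, 253 and 1516 CPM, which overlapped. Of the 9 genes, Erbb4 was the one whose female PiC-PrL tubes differed least among themselves where it was read in all 4, by 2.62-fold from lowest to highest.

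Adarb2 (chromosome 13, 8202866 to 8768747, plus strand, a span of 565882 bases with 13114 bases of exon) was low in 3 groups and high in the fourth. It stood at 40.7, 4.94, 3.54 and 19.6 CPM in female PiC-PrL, at 14.2, 11.8, 22.8 and 3.15 CPM in male PiC-PrL, and at 3.15, 22.7 and 12.01 CPM in female PiC-MeA tubes. In male PiC-MeA replicates 1 to 3 it was at 76.7, 393 and 522 CPM, above all 11 other tubes. The 3 low groups had means of 17.2 ± 17.3, 13.0 ± 8.09 and 12.6 ± 9.81 CPM (n = 4, 4 and 3), which differ by less than their SDs, and male PiC-MeA tubes had 330 ± 229 CPM (n = 3).

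**Figure D3:**
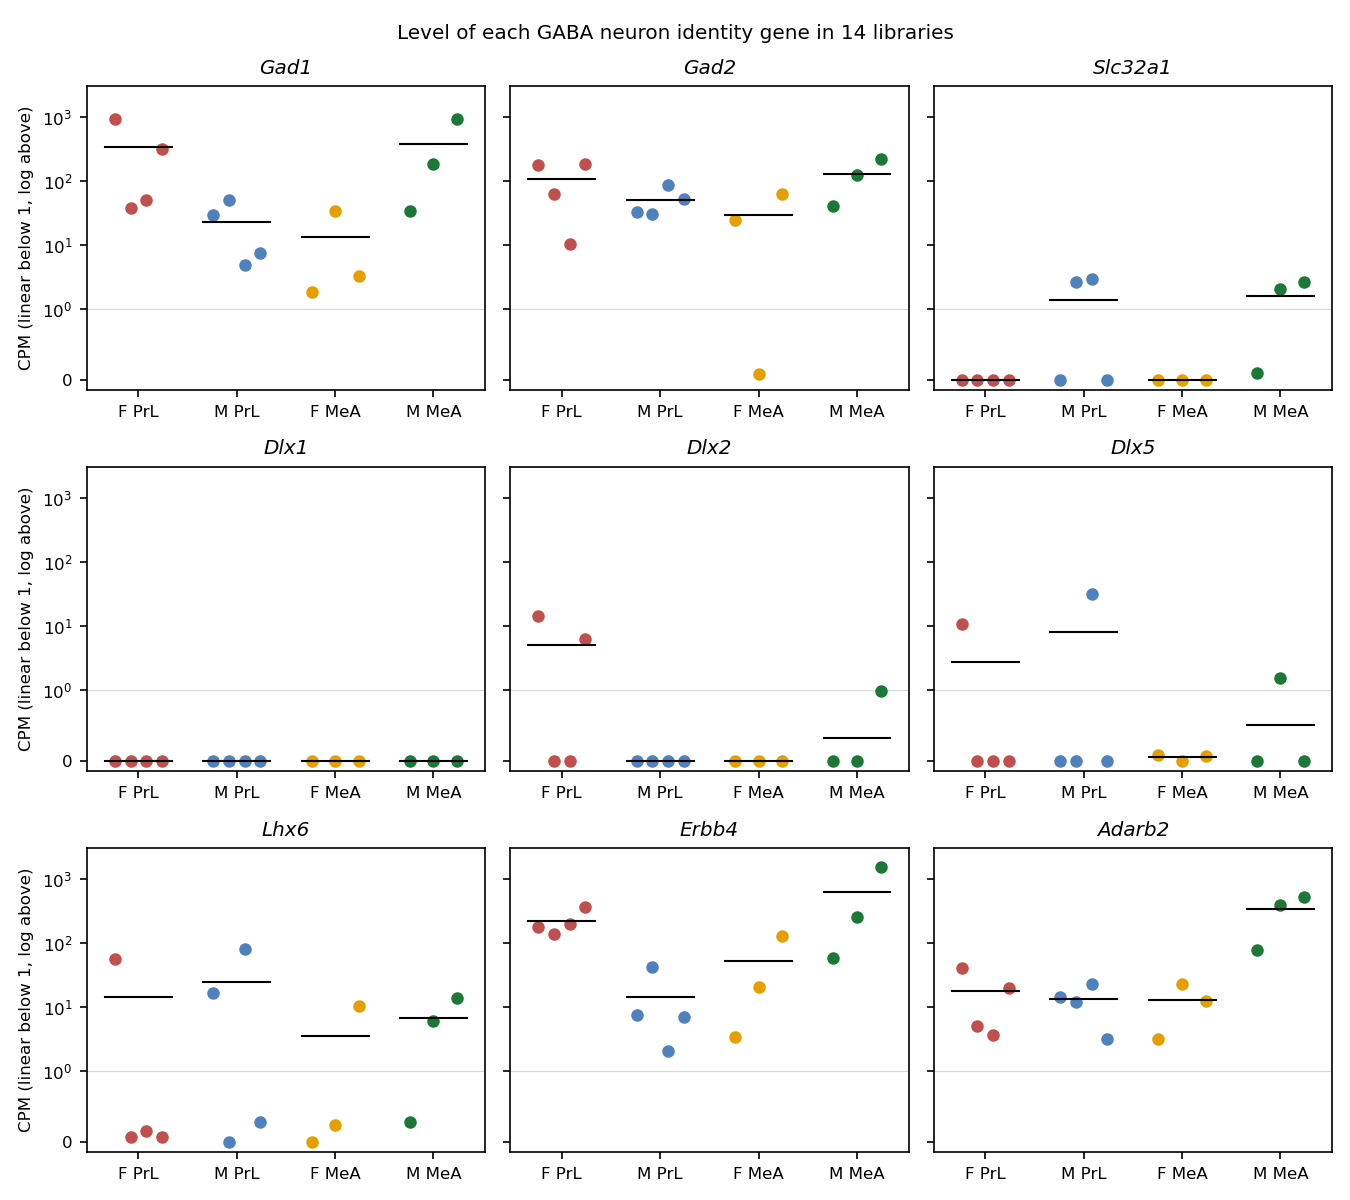
Each panel shows 1 gene, with a point per library and a line at the group mean, in CPM of total counts on an axis that is linear below 1 and logarithmic above. F and M stand for female and male, PrL and MeA for PiC-PrL and PiC-MeA. Erbb4 of female PiC-PrL tubes lies above that of male PiC-PrL tubes, and Adarb2 of male PiC-MeA tubes lies above all others.

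The first comparison asks whether the sexes differ among neurons labelled from PrL. Gad1 and Erbb4 were lower in male than in female PiC-PrL tubes, Gad1 by log2 -3.72 ± 1.23 (SE) and Erbb4 by -3.80 ± 1.13, but neither passed over the 14599 genes tested (edgeR quasi-likelihood test with Benjamini-Hochberg adjustment, adjusted p = 0.283 for each). Gad2 (-1.03 ± 1.10, adjusted p = 0.781), Lhx6 (0.83 ± 2.37, adjusted p = 0.950) and Adarb2 (-0.36 ± 0.88, adjusted p = 0.941) were also not called. In this contrast 0 genes passed (0% of those tested), while 2093 (14.3%) had an unadjusted p under 0.05. Dlx1 was not tested, and of the 8 members that were, 3 were lower and 1 higher at the unadjusted threshold. Those lower were Gad1, Erbb4 and Dlx2, and Slc32a1 was the one that was higher. Dlx2 was at 0 in every male PiC-PrL tube and Slc32a1 in every female one. Each had counts in only 2 tubes of the other sex, so these 2 calls rest on few tubes. The zeros of a whole group also fixed the sign of each change beforehand. Erbb4 alone of the members did not overlap between the groups, where 2.27% of genes did so in that direction. DESeq2's Wald test called 1017 genes, among them Gad1 (adjusted p = 0.0226) and Erbb4 (adjusted p = 0.0106), and limma's voom called 8, with none of the 5 members that have a fitted change. In bulk tubes such as these, fewer cells of a type and less RNA per cell cannot be told apart.

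The second comparison asks the same of neurons labelled from MeA. Gad1, Gad2, Dlx2, Erbb4 and Adarb2 had the opposite sign there, while Slc32a1, Dlx5 and Lhx6 were positive in both comparisons. Male PiC-MeA tubes had higher fitted levels of Gad1 (log2 4.73 ± 1.49, adjusted p = 0.298 by edgeR), Gad2 (2.09 ± 1.31, adjusted p = 0.651), Erbb4 (3.55 ± 1.29, adjusted p = 0.302) and Adarb2 (4.59 ± 1.18, adjusted p = 0.298), with Lhx6 at 0.90 ± 2.74 (adjusted p = 1.00). No member passed, as no gene did (0%), while 1805 genes (12.4%) were under 0.05 unadjusted. All 8 members tested had a positive fitted change, against 53.6% of all genes, and 4 of the 8 were higher at the unadjusted threshold, against 10.3% of all genes. Those 4 were Gad1, Slc32a1, Erbb4 and Adarb2. The tally leans in part on few counts: Dlx2 had 6 and Dlx5 16 in 1 male tube each, and Slc32a1 had 1, 21 and 16. Slc32a1 had counts in male tubes only, so it passed the filter through them and could only be positive. Dlx2, at 0 in every female PiC-MeA tube, could also only be positive. The signs of these genes therefore add nothing to the tally. No female PiC-MeA tube held more than 1 count of Slc32a1, Dlx2 or Dlx5. Slc32a1 and Adarb2 did not overlap between the sexes, which is 2 of 8 where 18.9% of all genes were higher without overlap. For Slc32a1 this rests on 1 count in male PiC-MeA replicate 1, within the 3 counts that a 0 allows. DESeq2 called 777 genes, with Gad1 (adjusted p = 0.00813) and Adarb2 (adjusted p = 0.000202) among them, and voom called 1761 but none of the 5 members. Beside these values stand the extra genes detected in male PiC-MeA libraries. With the number of genes with a count as a covariate, Gad2, Lhx6 and Erbb4 turned negative, and Gad1 and Adarb2 stayed positive. That covariate does not overlap between male PiC-MeA and the other libraries, so it and the group can hardly be told apart and the adjusted values are extrapolated. The summed level of 12 astrocyte markers was 1989 to 2494 CPM in male against 771 to 914 CPM in female PiC-MeA tubes, with Aqp4 at 44.5 to 172 CPM against 0, and that of 10 endothelial and mural markers was 36.1 to 137 against 0.545 to 2.82 CPM, with Cldn5 and Kcnj8 at 0 throughout. Their part in the result was not tested.

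Targets were then compared within a sex, in comparisons that share their tubes with those above. In females, PiC-MeA tubes had lower fitted levels than PiC-PrL tubes of Gad1 (log2 -4.72 ± 1.46, adjusted p = 0.403 by edgeR), Gad2 (-2.14 ± 1.27, adjusted p = 0.595), Lhx6 (-2.14 ± 2.73, adjusted p = 0.943), Erbb4 (-2.33 ± 1.18, adjusted p = 0.486) and Adarb2 (-0.57 ± 0.96, adjusted p = 0.974). No gene passed (0%), and 1619 (11.1%) were under 0.05 unadjusted, among them Gad1 and Dlx2. Dlx2 was at 0 in every female PiC-MeA tube and in 2 of the 4 female PiC-PrL tubes, so its change could only be negative. Gad1 and Erbb4 were lower without overlap, 2 of the 8 members tested against 2.88% of genes. Astrocyte markers were also lower in female PiC-MeA tubes, by sign in 9 of 12 (median log2 -2.48, 7 of them at the unadjusted threshold), with sums of 771 to 914 CPM against 1663 to 2322 in female PiC-PrL tubes, and their part in the result was not tested. DESeq2 called 628 genes and voom 31, and Gad1 passed by DESeq2 (adjusted p = 0.00623). Lhx6 depended on 1 tube: without female PiC-PrL replicate 1 its fitted change was 4.73.

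In males the signs of Gad1, Gad2, Erbb4 and Adarb2 were positive. PiC-MeA exceeded PiC-PrL tubes in the fitted level of Erbb4 by log2 5.02 ± 1.22 (adjusted p = 0.0760 by edgeR), of Adarb2 by 4.38 ± 1.04 (adjusted p = 0.0684) and of Gad1 by 3.73 ± 1.27 (adjusted p = 0.0946). Gad2 (0.98 ± 1.17, adjusted p = 0.772) and Lhx6 (-2.07 ± 2.73, adjusted p = 0.806) were further from the threshold. This contrast had 88 called genes (0.603%), none of them a member, and 3244 (22.2%) under 0.05 unadjusted. Erbb4 and Adarb2 did not overlap between the groups, 2 of 8 where 22.0% of genes were higher without overlap, and 3 of the 8 members were higher at the unadjusted threshold, against 17.3% of all genes. Of 6 tested endothelial and mural markers 5 were higher at that threshold and without overlap (median log2 6.08), though the sums of all 10 overlapped (36.1 to 137 CPM against 15.8 to 133, with Cldn5 and Kcnj8 at 0), and their part in the result was not tested. Erbb4 and Adarb2 passed without male PiC-MeA replicate 1 (adjusted p = 0.0411 and 0.0499), in a fit of only these 2 groups (0.0454 and 0.0452) and by DESeq2 (0.000295 and 6.49e-05). DESeq2 called 2022 genes, Gad1 too (adjusted p = 0.0183), and voom called 2617 but none of the 5 members. With the count of genes detected per library added to the fit, Erbb4 and Adarb2 turned negative (-0.58 and -0.18), again as extrapolated values.

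Erbb4 and Adarb2 are also very long genes, and the fitted changes of other long genes are given beside theirs as a description, with no test. Of the 234 tested genes that span at least 500 kilobases, a limit set after seeing the data, 214 had a positive change from PiC-PrL to PiC-MeA in males (median log2 1.09), and 62.0% were higher without overlap. Of all genes tested 53.4% were positive there (median 0.16) and 22.0% were higher without overlap. By sign, 217 of the 234 were higher in males in PiC-MeA tubes (median 0.96, beside 0.12 for all genes, of which 53.6% were positive). There 50.9% of the 234 were higher without overlap, against 18.9% of all genes. In PiC-PrL tubes 189 of the 234 were lower in males by sign (median -0.69), as were 7386 of the 14599 genes tested (median -0.02). Of the 234, 10.3% were lower without overlap there, against 2.27% of all genes. The changes of Erbb4 in these 3 contrasts and of Adarb2 in the first pair were larger than those medians, and the part of gene length in them was not tested.

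**Figure D4:**
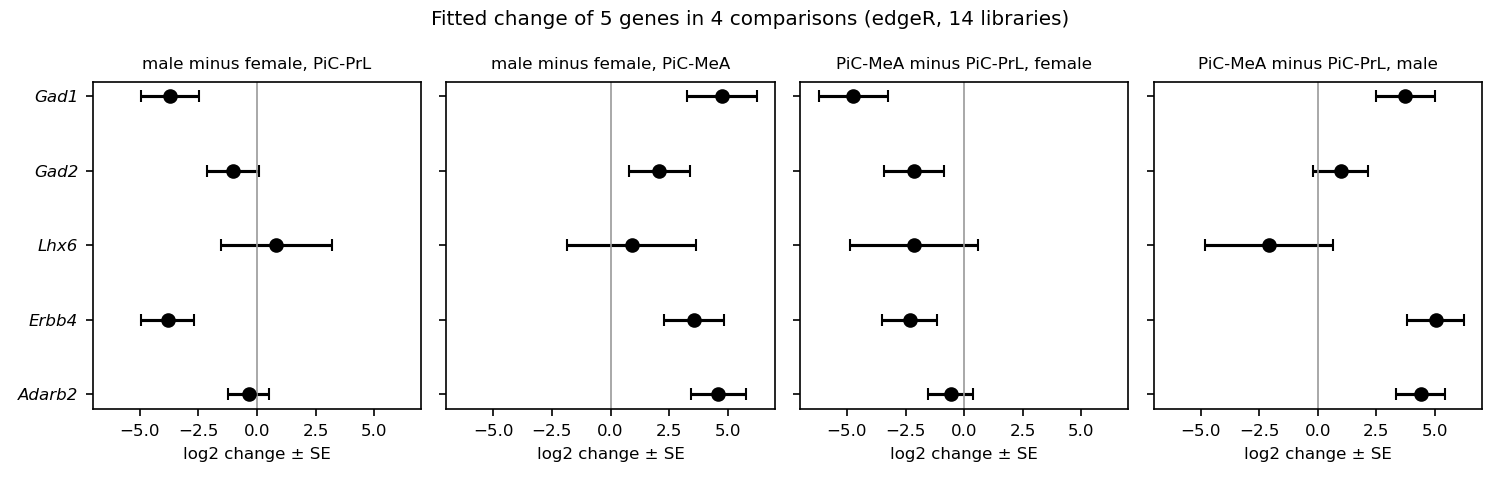
Points show the log2 change fitted by edgeR over 14 libraries, and bars show ± 1 standard error, for 5 genes in 4 comparisons named above each panel. Gad1 and Erbb4 lie left of 0 in males of PiC-PrL and right of 0 in males of PiC-MeA, and none of the 20 changes passed after adjustment.

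The sex difference of Gad1 in PiC-MeA exceeded that in PiC-PrL by log2 8.45 ± 1.95, the member with the smallest p in this interaction contrast, but it too missed the threshold (adjusted p = 0.152 by edgeR). Here 0 genes passed (0%), 2272 (15.6%) were under 0.05 unadjusted, and 4 of the 8 members were among these, all positive. The 4 were Gad1, Erbb4, Adarb2 and Dlx2, of which Dlx2 was at 0 in every male PiC-PrL and every female PiC-MeA tube. Those zeros fixed the sign of Dlx2 here. DESeq2 called 1156 genes, with Gad1 at an adjusted p of 9.40e-05, and voom called 729 but not Gad1. With no filter on low counts, Gad1 was called in all 5 contrasts, Erbb4 in 3 and Adarb2 in 1.

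Other genes of the GABA system were read from lists of enzymes and transporters, transcription factors and subclass markers. No gene of these lists passed in any of the 5 contrasts. Of the 5 tested enzyme and transporter genes, which include the glutamine transporter gene Slc38a1, 3 were by sign lower in males in PiC-PrL tubes. In PiC-MeA tubes 4 of the 5 were by sign higher in males. The medians were log2 -0.65 and 1.26, against -0.02 and 0.12 for all genes, and both are the changes of Slc38a1 itself. Abat, whose product breaks GABA down, ran from 4.32 to 189.6 CPM, and its 4 female PiC-PrL tubes (94.5 to 184 CPM) were above all 4 male ones (4.32 to 63.7 CPM). It alone of the 5 was lower in these males without overlap, where 2.27% of all genes were, and its edgeR adjusted p was 0.283. Slc38a1, a glutamine transporter gene, ran from 0.362 to 190.3 CPM, and Slc6a11, a GABA transporter gene best known from astrocytes, from 0 to 98.2 CPM.

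All 12 tested transcription factor genes of GABA neurons were higher in male than in female PiC-MeA tubes by sign (median log2 2.96), and 8 of the 12 were lower in male than in female PiC-PrL tubes (median -0.52). Of all genes tested 53.6% were higher in males in PiC-MeA tubes (median 0.12) and 48.7% in PiC-PrL tubes (median -0.02). The most abundant were Zeb2 (1.82 to 145 CPM), Satb1 (0.255 to 93.3 CPM), Meis2 (0 to 101 CPM) and Sox6 (0.0701 to 126 CPM), all of which are also used outside GABA neurons. Dlx6 was at 0 in all 14 libraries, like Dlx1.

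By sign alone, subclass markers were lower in male than in female PiC-PrL tubes for 14 of 18 tested (median log2 -1.55) and higher in male than in female PiC-MeA tubes for 13 of 18 (median 0.85). Of all genes tested 48.7% had a positive change in the first of these contrasts and 53.6% in the second. In each contrast 4 of the 18 (22.2%) were under 0.05 unadjusted, lower in PiC-PrL and higher in PiC-MeA tubes. The shares of all genes in those directions were 8.78% and 10.3%. The most abundant were Cck (176 to 1498 CPM) and Cnr1 (147 to 527 CPM), which excitatory neurons also use, Calb1 (53.0 to 2068 CPM), a calcium-binding protein gene, and the neuropeptide gene Npy (0.156 to 3081 CPM). Npy was highest in female PiC-PrL replicates 1 and 4, the tubes with the highest Gad1 of that group. It did not follow Gad1 elsewhere: in male PiC-MeA replicate 3, with the highest Gad1 of all tubes, Npy was at 14.8 CPM. Vip, a gene picked after its values were seen, was highest in male PiC-MeA replicate 3 (415 CPM), the tube with the highest Gad1, Erbb4 and Adarb2, and it had 1 count in male PiC-MeA replicate 1. In male PiC-MeA replicate 3 Calb1 was also at its highest (2068 CPM), whereas Cck was at its lowest (176 CPM).

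Excitatory markers were present in every tube beside these genes. Camk2a ran from 179 to 2002 CPM, Sv2b from 121 to 879 CPM, Neurod6 from 3.26 to 815 CPM and Rorb from 10.3 to 699 CPM. The tube with the highest summed level of the 9 genes, male PiC-MeA replicate 3 at 3193 CPM, had the lowest Camk2a and the lowest Neurod6 of all 14. Its Sv2b (308 CPM) and Rorb (210 CPM) were not the lowest. Its excitatory markers summed to 1665 CPM, above female PiC-PrL replicate 2 (1261 CPM) and male PiC-PrL replicate 4 (1534 CPM). Slc17a7, the vesicular glutamate transporter gene of cortical neurons, stood at 10.3 to 75.7 CPM, and Slc17a6, its subcortical relative, reached 634 CPM in the same male PiC-MeA replicate 3 and 285 CPM in replicate 2 (both looked up after their values were seen). The sum of 1665 CPM includes that Slc17a6 value. Slc17a6 was at 0 CPM in female PiC-PrL replicate 2 and at 0.0685 CPM in male PiC-PrL replicate 4, so the order of the sums leans on it. By sign, 10 of 16 tested excitatory markers in PiC-MeA tubes were lower in males (median log2 -0.32), where 53.6% of all genes were higher.

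**Figure D5:**
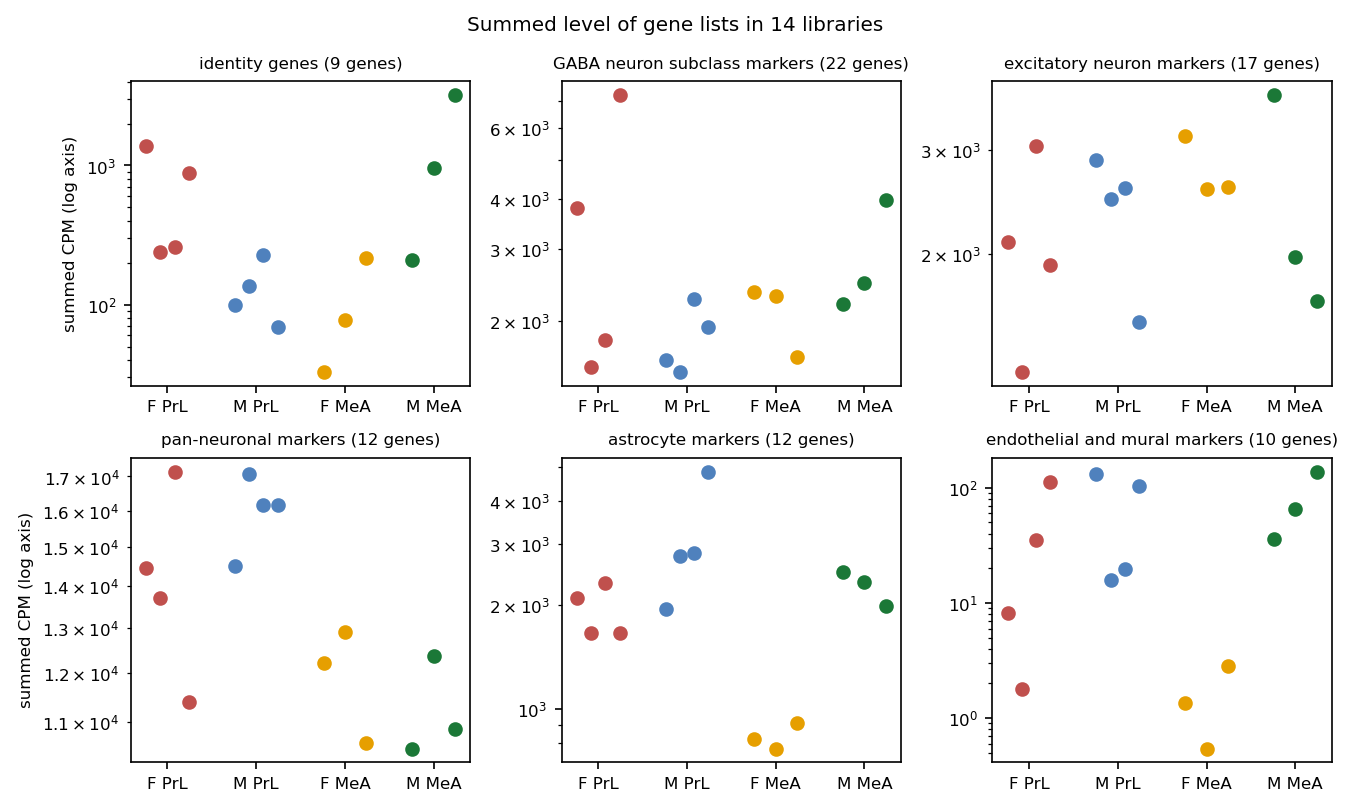
Summed CPM of 6 gene lists (log axes that differ between panels), with 1 point per library; F and M stand for female and male, PrL and MeA for PiC-PrL and PiC-MeA. The 9 identity genes sum to 32.8 to 3193 CPM, excitatory markers to 1261 to 3706 CPM, and the astrocyte sums of female PiC-MeA tubes lie below those of all other groups.

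The 9 genes did not form 1 common pattern over the tubes. Of the 28 pairs among the 8 genes with counts, Gad1 and Erbb4 were the most alike (Spearman's rho 0.82 over 14 libraries, which share groups and depth), followed by Gad1 and Dlx2 (0.70). Lhx6 bore no rank relation to Gad1 (0.02) or Erbb4 (-0.02), and was closest to Adarb2 (0.61). Among 12440 other genes, Gad1 was most like Fnbp1 (0.86), Fbxo45 (0.85), Slc16a6 (0.85) and Egf (0.85), and least like Ddx25 (-0.84), Cdk5 (-0.82) and Svop (-0.82). Erbb4 was most like Dip2c (0.89), Adamts6 (0.87), Htr7 (0.87) and Fam174a (0.86), and Adarb2 most like Efhd1 (0.92), Morc4 (0.92), Pcdh11x (0.91) and Nmnat3 (0.89). These are the ends of rankings of 12440 genes over only 14 libraries, given without a test. Slc16a6, Egf, Adamts6, Htr7, Efhd1, Morc4 and Nmnat3 each had a lowest level of 0 CPM. The part of the extra genes detected in male PiC-MeA libraries was not tested.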

How the data were processed

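The deposited values are raw counts, 1 column per library, which the authors made with Trimmomatic 0.39, HISAT2 2.2.1, SAMtools and featureCounts 2.0.1 on mm10, per the submitters' processing notes. Not given in the sources used here are the annotation release, the strand setting and how reads common to several genes were treated. Columns were joined to samples by name, and 54349 of 55401 gene identifiers, including those of all 9 genes, match GENCODE M21. Levels are CPM, computed from these counts with each library's total. The filter (filterByExpr, minimum total 15) kept genes that reached the CPM of 10 counts in a library of median total. That level had to be reached in as many libraries as the smallest group holds, from any group. The 14599 genes kept were fitted over 14 libraries with edgeR 4.0.16 in R 4.3.3 (TMM, robust quasi-likelihood, 1 mean per group, 5 contrasts). Genes were called at a Benjamini-Hochberg adjusted p under 0.05. The script was tested on simulated data. Alternatives were DESeq2 1.42.0, limma 3.58.1, other filters and samples left out. Slc32a1, Dlx2 and Dlx5 are given as counts, without fitted changes, because these depend on the prior count where a group is at 0. Named list genes are the 4 with the highest mean CPM of each list, of which 1 is not reported here. The genes and lists were chosen with earlier results of these data known.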

Additional observations from a re-analysis of the deposited data

Results flagged for a closer look

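In 4 of the 14 sets of 4 tubes that could be checked, 1 PiC-PrL tube lay far from the other 3 of its group (its gap to the next tube, as a share of the group's range, was above Dixon's 95% critical value). Chance passes it in about 1 set of 20 for normally distributed values, a rate that is no guide for CPM with zeros: where the other 3 tubes are at or near 0, as for Dlx5 and Lhx6, the share is near its maximum by construction. Dlx5 was at 10.8 CPM in female PiC-PrL replicate 1 and at 31.2 CPM in male PiC-PrL replicate 3, with 0 counts in the other tubes of each group. Lhx6 was at 56.1 CPM in female PiC-PrL replicate 1, where the others held at most 2 counts. Erbb4 was at 41.0 CPM in male PiC-PrL replicate 2, against at most 7.36 CPM in the other male PiC-PrL tubes.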

How the results depend on the processing

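The counts of called genes moved with the tool and the filter. In the order sex in PiC-PrL, sex in PiC-MeA, target in females, target in males and interaction, they were 0, 0, 0, 88 and 0 as reported, 38, 45, 46, 159 and 84 with no filter, 1017, 777, 628, 2022 and 1156 by DESeq2, and 8, 1761, 31, 2617 and 729 by voom. For sex in PiC-PrL, 1 gene was called with 10 counts required in 7 libraries and 1 without the robust option. For target in males the count was 987 in a fit of only the groups compared, 0 with the number of genes with a count as covariate, 38 with a replicate block, and 16 when the 3 PiC-PrL libraries that had fewest genes at 10 counts were left out. Leaving out 1 library at a time gave 0 to 1, 0 to 14, 0 to 1, 20 to 139 and 0 to 5 genes in the same order.

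Of 507 alternative values of the 21 fitted changes, 469 kept their direction and their side of the threshold, 22 newly passed, and 16 changed sign; the cause was not tested, beyond the covariate's separation of male PiC-MeA from the other libraries. With the covariate, Gad2 became 1.30 and Adarb2 0.53 for sex in PiC-PrL; Gad2 became -6.52, Lhx6 -26.9 and Erbb4 -0.46 for sex in PiC-MeA; and Gad2 became -11.2, Erbb4 -0.58 and Adarb2 -0.18 for target in males. Adarb2 was 0.11 by voom for sex in PiC-PrL, and Lhx6 was 0.055 with the replicate block for target in males. With 1 library left out, Adarb2 ran from -0.73 to 0.38 and Lhx6 from -1.34 to 7.74 for sex in PiC-PrL, Lhx6 from -0.31 to 5.44 for sex in PiC-MeA, Lhx6 from -6.89 to 4.73 and Adarb2 from -1.37 to 0.084 for target in females, and Lhx6 from -3.26 to 0.10 for target in males. Gad1 kept its sign under all alternatives run, and so did the interaction value, at 6.52 to 10.7.

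Replicate numbers did not pair the tubes: the deviations of 19 same-numbered pairs correlated at -0.0388 to 0.0407, and 3 of 14 libraries were closest to their own number. Slc32a1, Dlx2, Dlx5 and Lhx6 had under 10 counts in most libraries, which leaves their values there imprecise. Libraries of like depth still differed: male PiC-PrL replicates 2 and 3, of 14274982 and 14674376 counts, held 0 and 1165 counts of Lhx6.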
